A study of Drosophila melanogaster with 3 samples.

Results

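The genes described here are the cytochrome P450 (Cyp), glutathione S-transferase (Gst) and UDP-glycosyltransferase (Ugt) genes of Drosophila melanogaster, 151 of the 13968 protein-coding genes of the Ensembl annotation. They were taken by gene name alone, with no measured value: 81 genes named Cyp with a family number, letters and a member number, 35 named Gst with a capital letter, and 35 named Ugt with a family number. Of 5 other genes whose names begin with these letters, Cypl, Cyp40 and Cyp1 are named for cyclophilins, which are other proteins, and the P450 genes Cyp12d1-p and Cyp12d1-d missed the naming rule. The study was an anti-GFP chromatin immunoprecipitation with sequencing (ChIP-seq) on whole embryos aged 0 to 24 h of transgenic flies that express a fusion of Tango (tgo) with eGFP, as 3 biological replicates of 1 group. All embryos carried the tgo-eGFP insertion and were untreated so far as the labels say, so places that anti-GFP enriches without Tango cannot be told apart from Tango's own. Whole embryos mix all tissues and a day of development, and the labels give no tissue in which the fusion is expressed. For each replicate a thresholded and a longer ranked list of peaks were used, each peak with a summit, the base of highest enrichment.

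P450 enzymes oxidise hormones, lipids and foreign compounds in what is called phase I of detoxification, using electrons from reductase partners. Glutathione S-transferases couple glutathione to reactive compounds, and UDP-glycosyltransferases couple sugars to them, which is called phase II and makes the products easier to export. In mammals the best known activator of such genes is the aryl hydrocarbon receptor, which binds the xenobiotic response element, with the core GCGTG, as a pair with ARNT. Tango is the fly homologue of ARNT, and in flies Spineless with Tango is known to bind GCGTG, and Single-minded or Trachealess with Tango to bind ACGTG. Fly detoxification genes are best known as targets of other regulators, among them the cap'n'collar protein with its small Maf partner and the nuclear receptor Hr96.

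Of the members whose promoter held a summit of their own, 6 are shown: 3 whose peak recurred as a core region and 3 with a thresholded peak in 1 list, for comparison. Each is the dm6 sequence of the 151 bases centred on the summit, read 5′ to 3′ on the strand of the gene, and for GstD1 it ends 1 base before the start site. Capitals mark ACGTG or GCGTG on either strand, so that a GCGTG on the other strand reads CACGC.
GstZ2, chr3R:9459861-9460011, minus strand: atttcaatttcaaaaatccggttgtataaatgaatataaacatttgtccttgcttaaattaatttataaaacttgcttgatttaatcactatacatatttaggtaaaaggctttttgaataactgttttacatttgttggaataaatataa
Cyp310a1, chr2L:18653438-18653588, minus strand: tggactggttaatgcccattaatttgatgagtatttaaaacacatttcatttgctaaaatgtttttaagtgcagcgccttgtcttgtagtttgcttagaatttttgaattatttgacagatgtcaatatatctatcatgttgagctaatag
GstT4, chrX:13404359-13404509, plus strand: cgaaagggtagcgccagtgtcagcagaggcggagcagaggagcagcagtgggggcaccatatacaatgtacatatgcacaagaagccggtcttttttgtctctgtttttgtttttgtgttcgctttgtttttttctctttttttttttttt
Ugt316A1, chr3L:19062848-19062998, minus strand: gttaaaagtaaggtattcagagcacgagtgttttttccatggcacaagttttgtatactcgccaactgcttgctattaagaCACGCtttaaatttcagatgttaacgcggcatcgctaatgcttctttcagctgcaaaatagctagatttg
Cyp313b1, chr3R:8645913-8646063, minus strand: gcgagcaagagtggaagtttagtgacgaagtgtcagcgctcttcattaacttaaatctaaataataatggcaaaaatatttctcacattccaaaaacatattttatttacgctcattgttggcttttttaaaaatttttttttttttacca
GstD1, chr3R:12369269-12369384, minus strand: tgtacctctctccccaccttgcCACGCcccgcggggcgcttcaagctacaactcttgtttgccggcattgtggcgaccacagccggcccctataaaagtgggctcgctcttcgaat
The first 3 belong to members whose peak recurred between replicates, and none of them held either word. Of the other 3, whose peak was in 1 thresholded list, Ugt316A1 held GCGTG from -101 bp and GstD1 from -94 bp relative to the start site. In the 250 bp upstream of the gene start, a longer stretch, GCGTG was found in 20.6% of all protein-coding genes. These few chosen windows are therefore no result about recurring against single-list peaks. The GstZ2 window lay in an intron of its longest transcript and was only 21.9% G and C, against 60.3% in the GstD1 window.

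Few of the detoxification enzyme genes carried an anti-GFP peak. A thresholded summit lay in the body of the gene or no more than 2 kb upstream of it, called the gene's territory here, of 8 members in replicate 1, 10 in replicate 2 and 9 in replicate 3. Over all protein-coding genes the same held for 24.2%, 27.2% and 20.3% of genes in replicates 1, 2 and 3. The member share was 5.30%, 6.62% and 5.96% in the 3 replicates, or 5.96% ± 0.662, against 24.1% ± 3.54 for all other genes (SD, n = 3 replicates). The member share was thus lower in each replicate, and the ranges do not overlap. The difference, members minus other genes, was -18.1 percentage points ± 3.30 (SD, n = 3), and the exact two-sided sign-flip permutation test gave p = 0.25, the smallest p that 3 replicates allow. Replicates share the genes and the peak calling, so the spread between them does not cover differences between genes.

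**Figure D1:**
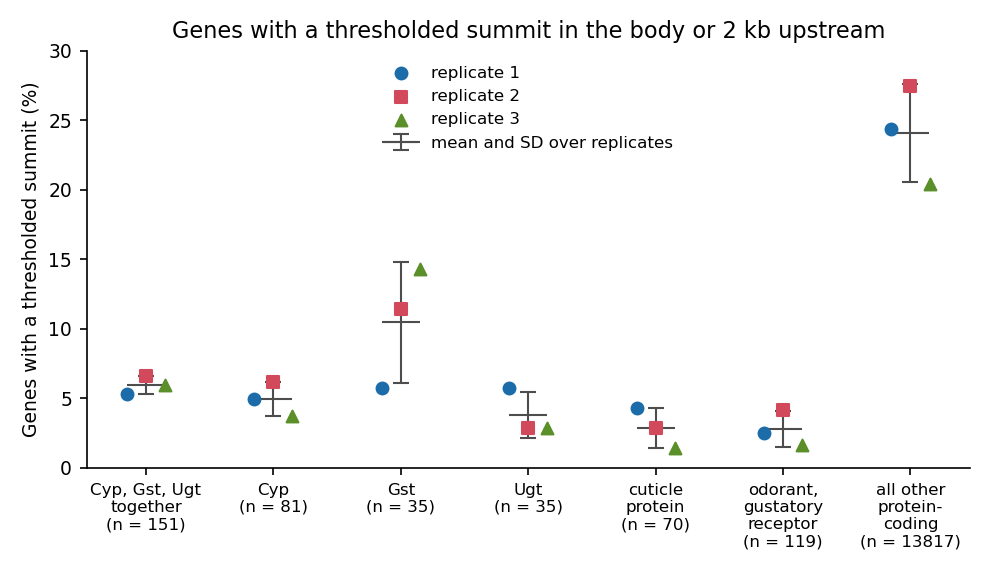
Percentage of genes with a thresholded summit in the gene body or 2 kb upstream (vertical axis) for the members together, for each family and for 3 sets of other genes, with 1 point per replicate and bars for mean and SD over the 3 replicates. The members together sit between 5.30% and 6.62%, all other protein-coding genes between 20.4% and 27.5%, and Gst genes spread most, from 5.71% to 14.3%.

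Recurring peaks gave much the same number of genes. Summits from different lists were merged where they lay within 150 bp, and a place marked in at least 2 lists is called a core region. Of the 151 members 9 had a core region, or 5.96% (exact 95% binomial interval 2.76 to 11.0%), against 23.1% of all protein-coding genes and 23.3% of all other genes. In 5 of the 9 the region was in all 3 lists and in 4 it was in 2 lists. Without replicate 2, where a region had to be in the 2 remaining lists, the count was 5 (3.31%), against 17.9% of all genes. With territories of 10 kb on either side of the gene body it was 44 (29.1%), against 54.9% of all genes. The Cyp family had 4 of 81 (4.94%), the Gst family 4 of 35 (11.4%) and the Ugt family 1 of 35 (2.86%). Their exact intervals, 1.36 to 12.2%, 3.20 to 26.7% and 0.0723 to 14.9%, overlap, and a difference between the families was not tested. By class, the 4 Cyp genes were all among the 38 of the CYP3 clan, the clan that holds most P450s known for insecticide metabolism, while 0 of 32 CYP4 clan, 0 of 7 mitochondrial clan and 0 of 4 CYP2 clan genes had one. That split over clans was not tested. Among Gst genes the regions fell to 2 of 14 epsilon, 1 of 4 theta and 1 of 2 zeta genes, and to 0 of 11 delta genes.

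Among the P450 genes Cyp6u1 carried the strongest peak, on 2R from 6974997 to 6975237. Its percentile of the authors' signal value within the thresholded list was 93.1, 93.4 and 92.5 in replicates 1, 2 and 3, or ranks 248, 315 and 229. The peak was thus high and steady in all 3 lists. Its summit lay 89 bp upstream of a Cyp6u1 start, but only 18 bp downstream of the start of Ufsp1, a protease of the ubiquitin-like modifier Ufm1. It is the 1 core region of the 9 whose nearest start site belonged to another gene, and peaks at such paired starts cannot be assigned to either gene from these files.

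Cyp6v1, on the X, had a mid-strength peak in all 3 lists (20655188 to 20655302), at percentiles 56.9, 68.1 and 62.5. This was the 1 core region outside a promoter, in intergenic sequence 1913 bp upstream of the gene, close to the limit of 2 kb. Cyp310a1 on 2L (18653338 to 18653687) varied most of the regions in all 3 lists, with percentiles of 20.1, 55.6 and 70.8 in replicates 1, 2 and 3. Its AT-rich window, printed above, lies 503 bp upstream of the gene and also within MESR3, a longer gene on the other strand that spans it. Cyp317a1 on 2R (14898826 to 14899165) had weak peaks in replicates 1 and 2, at percentiles 19.4 and 20.5, and the summit lay 196 bp upstream of its nearer start. In replicate 3 a candidate was listed there with an irreproducible discovery rate (IDR) of 0.720, far above the 0.01 at which the thresholded lists end. IDR scores how well a peak recurs between rankings, and low values mean that it recurs well.

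GstE13, an epsilon-class glutathione S-transferase gene, had the strongest peak of all members, on 2R from 9122037 to 9122354. Its percentiles were 99.8, 99.6 and 98.9 in replicates 1, 2 and 3, which put it at ranks 10, 18 and 33 of 3605, 4759 and 3026 peaks. No other member came near the top of the lists in this way, and the 3 summits lay within 10 bp of each other. The summit was 72 bp downstream of one GstE13 start and 127 bp upstream of another, in a window that was 20.8% G and C. GstE12, another epsilon gene that stands apart from the main epsilon cluster, had a summit 91 bp downstream of a start (2R, 24767911 to 24768250) at percentiles of 48.0 in replicate 2 and 11.2 in replicate 3. Replicate 1 listed a candidate there with an IDR of 0.735.

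GstZ2, a zeta-class gene of the family whose enzymes isomerise maleylacetoacetate in tyrosine breakdown, had a region on 3R from 9459766 to 9460105. It was at percentile 46.7 in replicate 1 and 70.6 in replicate 2, and the replicate 3 candidate missed the threshold with an IDR of 0.0365. The summit lay 716 bp downstream of the distal start and 760 bp upstream of the next GstZ2 start, so it counts as promoter only for the shorter transcripts. GstT4, a theta-class gene on the X, had a low core region (13404264 to 13404603, 315 bp upstream), at percentiles of 33.6 in replicate 2 and 4.59 in replicate 3. Its replicate 1 candidate had an IDR of 0.647, and the region also lay in the 2 kb upstream of CG12725.

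Ugt37C1 was the 1 UDP-glycosyltransferase gene with a core region, on 2R from 16845865 to 16846204. The region was in all 3 lists but low in each, at percentiles 6.88, 37.0 and 13.6 in replicates 1, 2 and 3. Its summit lay 997 bp upstream of the single start, just inside the promoter limit of 1000 bp.

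**Figure D2:**
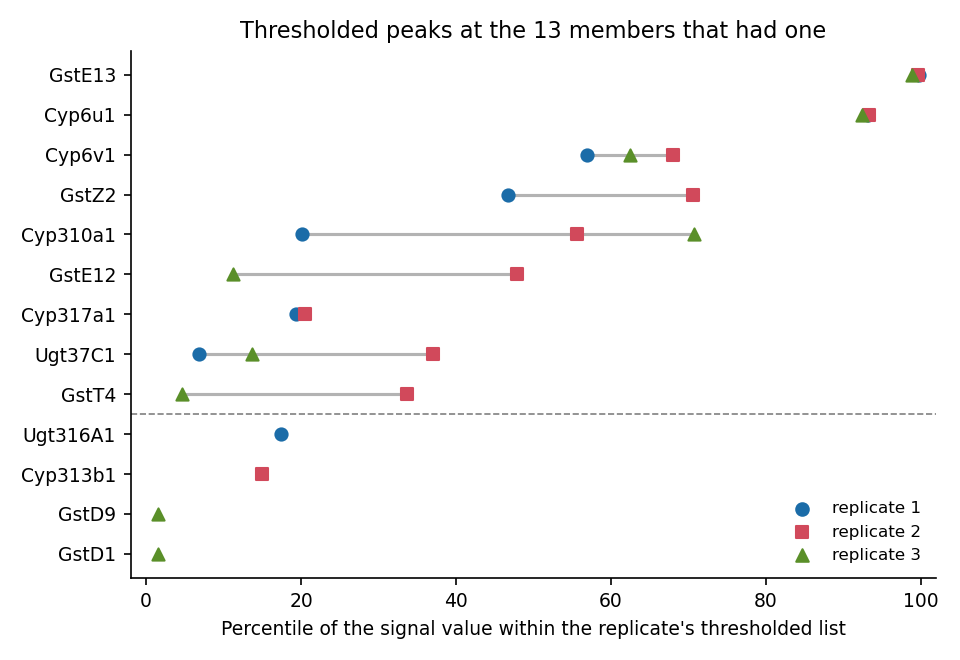
Percentile of the signal value within each replicate's thresholded list (horizontal axis) for the 13 members with a thresholded peak, with 1 symbol per replicate and none where the list held no peak. Members above the dashed line had a core region and those below it a peak in 1 list; GstE13 and Cyp6u1 sit above 92 in all 3 replicates, and most others spread widely or lie below 50.

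The 9 core regions were set beside all core regions. Their summit lay in a promoter, 1000 bp upstream to 200 bp downstream of a start site, in 8 of 9 cases (88.9%), against 47.9% of all 3463 core regions, and in 4 it was within 200 bp of a start of the member. A territory always takes in the sequence upstream of a gene, which by itself raises this share over that of regions taken anywhere. Their mean G and C content in the 101 bp at the summit was 33.1% (20.8 to 49.5%), against 31.1% for all core regions, while windows 500 bp to either side averaged 43.6% for both. Median strength was at percentile 48.9, against 52.9 for all core regions. In 3 of the 9 regions another gene's territory held the same summit.

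**Figure D3:**
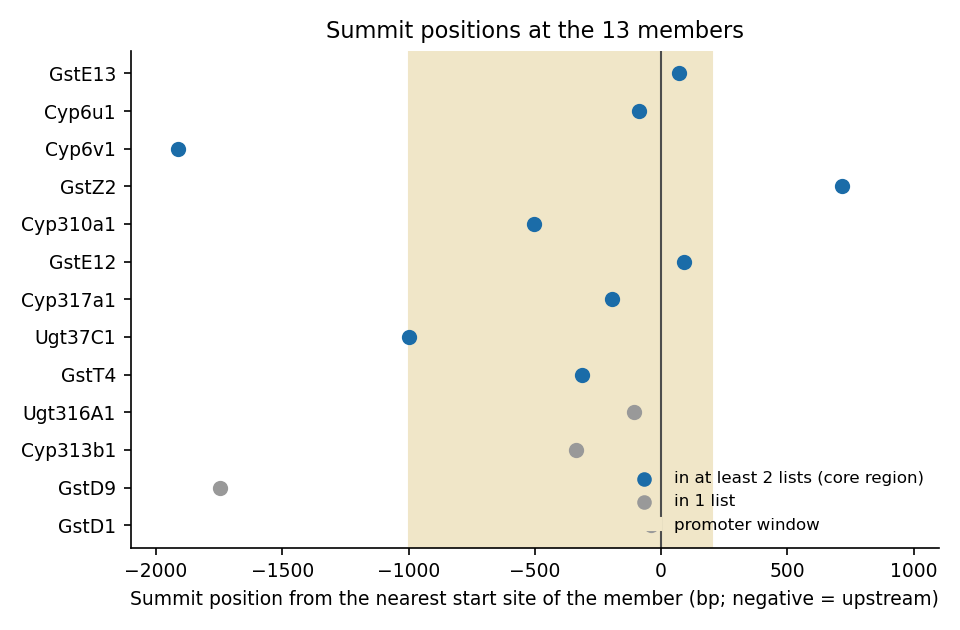
Summit position relative to the nearest start site of the member (horizontal axis, bp, negative upstream) for the 13 members with a thresholded peak, blue for core regions and grey for peaks in 1 list, with the promoter window of 1000 bp upstream to 200 bp downstream shaded. Most summits fall upstream of the start and inside the window, Cyp6v1 lies outside at -1913 bp, and GstZ2 at 716 bp is in a promoter only by its next start.

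The remaining 4 members with a thresholded summit had it in 1 list. Ugt316A1 on 3L was seen in replicate 1 at percentile 17.4, 107 bp upstream of its start and also in the territory of Sfxn2, a sideroflexin gene. Cyp313b1 on 3R was seen in replicate 2 at percentile 15.0, 338 bp upstream. GstD1, whose enzyme is known for breaking down DDT, had a summit 41 bp upstream in replicate 3 alone, at percentile 1.55 or rank 2980 of 3026. The same summit lies in the 2 kb upstream of GstD9 (-1745 bp), which is why that gene is counted too, so the 13 members rest on 12 regions. Replicate 1 listed a candidate at the GstD1 summit with an IDR of 0.713, and replicate 2 listed none within 150 bp.

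For the other 138 members no list held a thresholded summit, yet weak candidates were common. The ranked lists hold 35134, 75958 and 33491 candidates, and 81, 109 and 72 of these 138 had at least 1 of them in replicates 1, 2 and 3. Over all 151 members the numbers were 94, 121 and 85. The share was 66.2% ± 12.4 of members and 77.2% ± 7.33 of all other genes, a difference of -11.0 percentage points ± 6.22 (SD, n = 3; exact sign-flip permutation p = 0.25, two-sided, the smallest possible). Of the 151 members 5 had no candidate in any list, namely Cyp28a5, Cyp4e1, Cyp4e2, Cyp4g1 and GstT3. The same share over all protein-coding genes is not given here, so this count is no result about the members. A candidate seen in all 3 ranked lists at one place was found for 25 members, or 16.6%, against 43.2% of all protein-coding genes.

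Where candidates lay at members, fewer of them passed the authors' threshold. In replicate 1, 8 of 143 candidates in member territories passed (5.59%), in replicate 2 11 of 413 (2.66%) and in replicate 3 9 of 129 (6.98%). For all other genes 14.2%, 7.29% and 11.4% of candidates passed in the same replicates. These sums count a candidate once for each territory that holds it, so the replicate 3 summit shared by GstD1 and GstD9 counts for both. With each candidate counted once, 8 of 129, 11 of 356 and 8 of 117 passed at members (6.20%, 3.09% and 6.84%), against 12.4%, 6.78% and 10.2% of candidates in other territories alone. In the sums over genes the difference, members minus others, was -5.91 percentage points ± 2.37 (SD, n = 3), lower at members in 3 of 3 replicates (exact sign-flip permutation p = 0.25, two-sided, the smallest possible), and it was -4.42 ± 1.51 with each candidate counted once. The density of candidates differed less, at 0.330 ± 0.231 per kb in member territories and 0.402 ± 0.228 in those of other genes. Replicate 2 had more candidates than both others together, which sets most of that spread. Paired within replicates, the density difference was -0.0722 per kb ± 0.0119 (SD, n = 3, exact permutation p = 0.25). Densities divide summed candidates by summed kb. Ugt50B3 alone has 54.87 kb of territory, against a member median of 3.979 kb, with 1, 2 and 1 candidates in replicates 1, 2 and 3. That gene thus lowers the member density, and the difference without it was not computed.

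The strongest candidate of each gene gave the same order. It is no independent measure, since the thresholded lists are drawn from the ranked candidates. The highest of fewer candidates also tends to be lower, and the number of candidates per gene was not matched. Its median percentile within the ranked list was 53.7, 79.3 and 61.5 at members in replicates 1, 2 and 3, over the members with a candidate, against 79.5, 87.5 and 77.2 at other genes. A candidate at or above the 90th percentile was present at 5.96%, 15.2% and 3.97% of members, and at 24.0%, 37.9% and 22.2% of other genes. The gap between the medians, members minus others, was -25.9, -8.13 and -15.7 percentile points in the 3 replicates, or -16.6 ± 8.90 (SD, n = 3; exact sign-flip permutation p = 0.25, two-sided, the smallest possible).

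**Figure D4:**
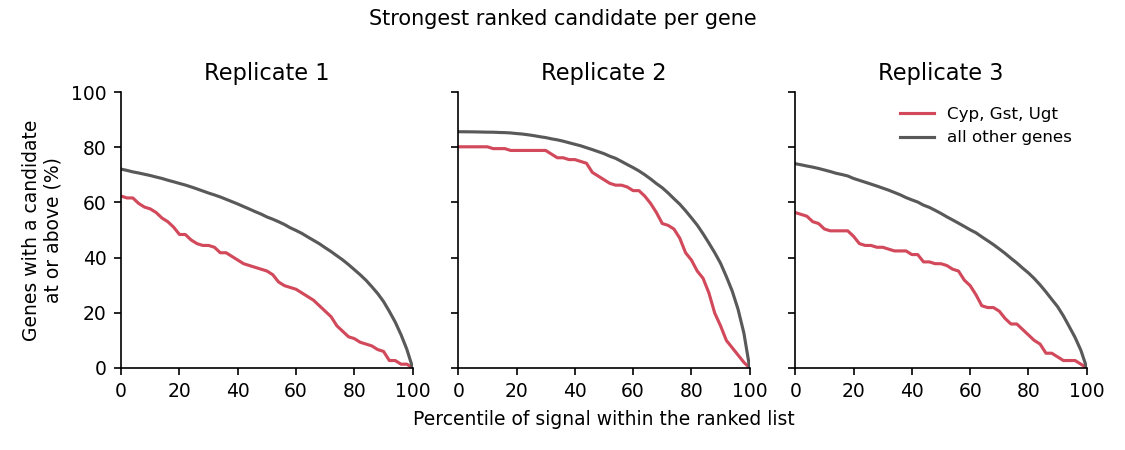
Percentage of genes (vertical axis) whose strongest ranked candidate was at or above a given percentile of signal within the ranked list (horizontal axis), per replicate, for the members (red) and all other protein-coding genes (grey). The red curve lies below the grey one throughout, and at the 90th percentile the members stand at 5.96%, 15.2% and 3.97%.

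Of the members with no thresholded summit, 14 had a candidate at one place in all 3 ranked lists. The share among all genes with no thresholded summit is not given here, so this count is no result about the members. Cyp4d20 led the 14 with percentiles of 76.5, 86.0 and 89.7 in replicates 1, 2 and 3. Its candidate lay 1052 bp upstream of its start, in an intron of another gene. Cyp28d2 followed with 65.5, 90.3 and 71.8 at 880 bp inside the gene, in a coding exon. Both stayed above an IDR of 0.01 in all 3 lists, with lowest values of 0.0437 for Cyp4d20 and 0.158 for Cyp28d2.

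Cyp28d1, which lies beside Cyp28d2, came closest to the threshold. A candidate 494 bp upstream had percentiles of 87.2, 97.0 and 23.3 and an IDR of 0.0196, 0.000177 and 0.859 in replicates 1, 2 and 3. In replicate 2 this is past the threshold, but the thresholded list of that replicate does not hold it. It is the 1 member candidate of which this is true. A candidate of Cyp4c3, in a coding exon 3866 bp inside the gene, stood at 44.9, 88.6 and 82.0 in the 3 replicates. Cyp4d1 had one 87 bp upstream of its start at 83.4, 89.5 and 21.3, and Ugt305A1 one 369 bp upstream at 19.6, 92.3 and 79.4. These last values differ so much between replicates that no order among them holds beyond the spread.

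Members best known for their roles mostly lacked peaks. Cyp6g1, whose overexpression gives DDT resistance, had candidates of at most percentile 33.1, 81.2 and 79.6 in replicates 1, 2 and 3, at 3 different places. Cyp6a2, an inducible P450, reached 84.5, 84.6 and 19.1. Cyp6a8, Cyp6g2 and Cyp12a4, the last known for lufenuron resistance, had candidates in replicate 2 alone, at 80.3, 44.4 and 37.4. In none of these genes was a candidate seen at one place in all 3 lists.

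The P450 genes named next, some of them known for a role in development, had no thresholded summit, like most members. The best candidates of 1 gene need not lie at one place. Cyp18a1, which inactivates ecdysteroid hormones, reached percentiles of 57.8, 58.8 and 11.9 in replicates 1, 2 and 3. Cyp303a1, needed for sensory organ development, reached 39.9 and 86.5 in replicates 1 and 2 and had no candidate in replicate 3. Cyp301a1, which acts in cuticle formation, reached 4.81, 86.6 and 39.4. It had 1 candidate recurring in all 3 lists, 303 bp inside the gene in a coding exon, at 4.81, 72.1 and 39.4. Cyp49a1, a mitochondrial P450, reached 62.1, 89.5 and 31.9. The hydrocarbon-forming Cyp4g1 of oenocytes had no candidate, while its relative Cyp4g15 had one 111 bp upstream of its start in all 3 lists, at 19.7, 89.5 and 77.4. Cyp9f2, though free of thresholded summits, lay 2.88 kb from the nearest core region and had a replicate 2 candidate 57 bp inside the gene with an IDR of 0.0235.

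Among the well-known conjugating enzymes, GstS1, a muscle enzyme that clears lipid peroxidation products, reached 52.7, 92.5 and 70.6 in replicates 1, 2 and 3, with a lowest IDR of 0.0156 in replicate 2. GstO1 of the omega class reached 81.4, 90.5 and 9.25, with a lowest IDR of 0.0184, again in replicate 2. GstD2 reached 13.03 in replicate 1 and 81.0 in replicate 2 and had no candidate in replicate 3. GstE1, GstE3 and GstT1 had candidates in replicate 2 alone, at 84.7, 90.7 and 83.7, and GstZ1 reached 68.8 in replicate 2 and 63.1 in replicate 3. Ugt36A1 reached 74.2, 64.9 and 54.0 and Ugt37A1 8.02, 85.8 and 43.8, while Ugt35B1 had a candidate in replicate 3 alone, at 57.3. Replicate 2, with the longest ranked list, supplied the highest of these values for most genes.

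Many members stand in tandem arrays, where few peaks lay. With at most 10 kb between neighbours, 56 members stood alone, 26 stood in pairs and 69 in arrays of 3 or more. A core region was found at 7 of the 56 single members (12.5%, exact interval 5.18 to 24.1%), 1 of 26 in pairs (3.85%) and 1 of 69 in larger arrays (1.45%, 0.0367 to 7.81%). Over all protein-coding genes the share was 23.1%. Gene length was not matched between these groups, so arrays and length are not told apart here. The 11 GstD genes, for one, had a median length of 808 bp, and 9.47% of other genes up to 1 kb had a core region. Arrays share ancestry and sequence and their genes are not independent, so no test was made. The GstD array of 11 genes spans 20.8 kb of 3R and had its 1 thresholded summit, at GstD1, in replicate 3. The array of GstE1 to GstE10 (10 genes, 13.2 kb) and the Ugt array on 3R with Ugt35B1 (9 genes, 26.9 kb) had none, with 1, 13 and 3 and 7, 5 and 2 candidates in replicates 1, 2 and 3. In the Cyp6a array of 9 genes the summit at Cyp317a1, at its end, was the only thresholded region. Near-identical copies can lose reads that map to several places, and whether that bears on these counts was not tested.

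Core regions lay farther from members than from other genes. The median member length was 1979 bp, against 2171 bp for all other genes, and the nearest core region lay at a median of 18.6 kb from the 5′ end, against 9.99 kb. Within 10 kb 38 members had a core region (25.2%), against 49.98% of other genes. The share with a core region rose with length among other genes, so members were also compared within length classes. In genes of up to 1 kb it was 0 of 16 members (exact interval 0 to 20.6%) and 9.47% of 2673 other genes, which lies inside that interval. In genes of 1 to 2 kb it was 6.35% of 63 members (exact interval 1.76 to 15.5%) and 16.9% of 3783 other genes. In genes of 2 to 3 kb it was 0 of 48 members (0 to 7.40%) and 21.9% of 2057 other genes. At 3 to 5 kb it was 5 of 18 members (27.8%, 9.69 to 53.5%) and 26.0% of 1820 other genes, a gap well within the interval. The share with a thresholded summit in this class was 24.1% ± 6.42 of members and 26.9% ± 3.49 of other genes (SD, n = 3 replicates). Without replicates 1, 2 and 3 in turn, 3, 2 and 4 of the 18 members had a core region (16.7%, 11.1% and 22.2%). The share of other genes in this class was then 21.4%, 20.6% and 24.0%. Of the 6 members over 5 kb, namely Cyp309a2, Cyp49a1, Cyp4c3, Cyp4g15, GstS1 and Ugt50B3, 0 had a core region (0 to 45.9%), against 40.2% of 3484 other genes, which lies inside that interval. The longest, Ugt50B3 at 52870 bp, lay 368 kb from the nearest core region.

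**Figure D5:**
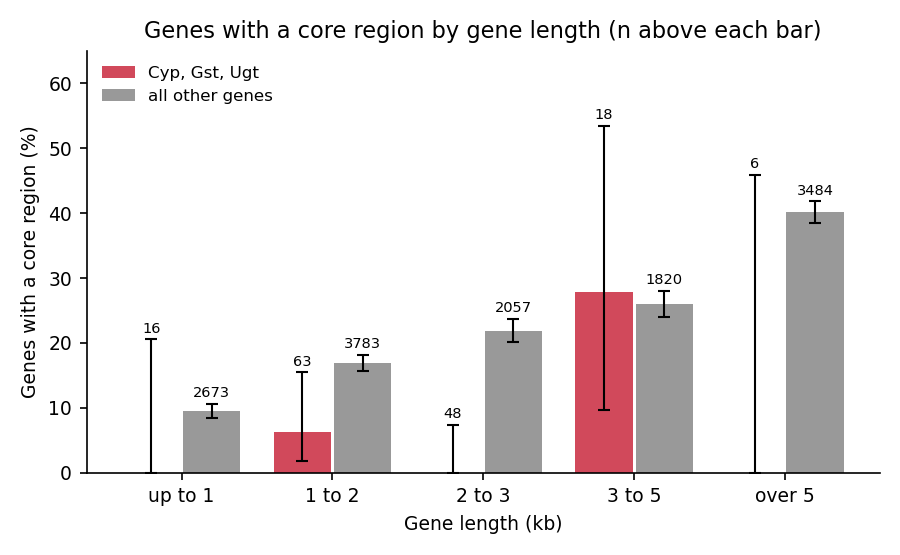
Percentage of genes with a core region (vertical axis) by gene length class (horizontal axis, kb), members in red beside all other protein-coding genes in grey, with exact 95% binomial intervals and the number of genes above each bar. Members are at 0% in 3 of the 5 classes and lower than other genes in 4, while at 3 to 5 kb they stand at 27.8% and the others at 26.0%, inside the members' interval.

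Beside other gene families that respond to the outside or serve late tissues, the mean share with a thresholded summit was higher for members, at 5.96% ± 0.662. The share with a thresholded summit was 2.86% ± 1.43 for 70 cuticle protein genes (Cpr and a number) and 2.80% ± 1.28 for 119 odorant and gustatory receptor genes (SD, n = 3 replicates). Members were 3.10 percentage points ± 1.85 above the cuticle protein genes and 3.16 ± 0.987 above the receptor genes, higher in 3 of 3 replicates. Each exact two-sided sign-flip permutation test gave p = 0.25, the smallest possible. Median gene length was 1979 bp for members, 1093.5 bp for cuticle protein genes and 1444 bp for receptor genes. Length was not matched in this comparison, so family and length are not told apart here. By core regions the exact intervals overlapped, at 2.76 to 11.0% for members, 0.348 to 9.94% for cuticle protein genes and 0.523 to 7.19% for receptor genes. On 2 other measures the cuticle protein genes had the higher values: 16.6% of members and 24.3% of cuticle protein genes had a candidate in all 3 ranked lists at one place. A core region lay within 10 kb of 25.2% of members and 34.3% of cuticle protein genes.

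The words bound by Tango pairs were not seen under the members' core regions. In the 101 bp at the summit 0 of 9 core regions held ACGTG or GCGTG on either strand, which allows a share of up to 33.6% (exact 95% interval). Over all core regions 5.54% held ACGTG and 5.49% GCGTG, and beside that background 0 of 9 is no result about the members. Of the 18 windows 500 bp to either side of the member summits 4 held ACGTG and 2 held GCGTG, against 9.60% and 13.9% of such windows over all core regions. GATAA, the core bound by GATA factors, was in 2 of 9 (22.2%), at Cyp6u1 and Ugt37C1, against 24.5% of all core regions, and TATCGA, a core of the DREF element, in 0 of 9 against 5.05%.

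The promoters of the members held these words about as often as any others. In the 250 bp upstream of the gene start GCGTG was found on either strand in 31 of 151 members (20.5%, exact interval 14.4 to 27.9%), against 20.6% of all protein-coding genes, and ACGTG in 27 (17.9%), against 17.0%. The longer form TNGCGTG, which contains GCGTG and matches the extended xenobiotic response element of mammals, was in 8 members (5.30%, 2.31 to 10.2%), against 6.06% of all genes. A match of letters is not a binding site. The 8 were GstZ2, GstD2, Cyp313b1, Cyp12a5, Cyp28c1, Cyp308a1, Cyp4p2 and Ugt50B3, of which GstZ2 had a core region and Cyp313b1 a thresholded summit in 1 list. Of all 846 genes with this word upstream 202 had a core region (23.9%), close to the 23.1% of all genes.

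Of these, 3 promoters are printed because their genes are described above, as the 250 bases of dm6 upstream of the start on the strand of the gene, with TNGCGTG on either strand in capitals (on the other strand it reads CACGCNA).
GstZ2, chr3R:9460653-9460902, minus strand: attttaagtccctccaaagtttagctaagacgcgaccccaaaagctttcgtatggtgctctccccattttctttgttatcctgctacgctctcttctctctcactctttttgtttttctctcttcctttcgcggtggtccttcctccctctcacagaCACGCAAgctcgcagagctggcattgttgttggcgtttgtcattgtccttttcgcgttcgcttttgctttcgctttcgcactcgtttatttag
GstD2, chr3R:12371721-12371970, plus strand: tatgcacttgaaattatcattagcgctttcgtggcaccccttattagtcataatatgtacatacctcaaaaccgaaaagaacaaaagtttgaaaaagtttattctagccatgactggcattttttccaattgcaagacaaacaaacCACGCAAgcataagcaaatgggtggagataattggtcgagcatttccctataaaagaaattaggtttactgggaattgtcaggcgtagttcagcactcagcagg
Cyp313b1, chr3R:8645651-8645900, minus strand: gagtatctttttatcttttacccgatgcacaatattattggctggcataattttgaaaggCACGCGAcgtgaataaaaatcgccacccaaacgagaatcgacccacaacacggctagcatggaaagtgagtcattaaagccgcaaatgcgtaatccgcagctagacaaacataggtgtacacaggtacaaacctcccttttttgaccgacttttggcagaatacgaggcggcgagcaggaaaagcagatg
The capitals begin 93, 104 and 190 bp upstream of the start of GstZ2, GstD2 and Cyp313b1. At GstZ2 the peak lay elsewhere, 716 bp downstream of that start. In Cyp313b1 the match overlaps an ACGTG on its right, and the single-list summit lay 338 bp upstream, outside the printed stretch. GstD2 had no thresholded summit.

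Genes taken to supply or regulate these enzymes, or to act beside them, were described for comparison, from 6 short lists. Ecdysteroid-making P450 genes with names of their own (dib, sad, shd, spo, spok) had a core region in 0 of 5 cases. Of 6 redox partners 3 had one. Cyt-b5, an electron donor to P450s, had its region at percentile 91.8 ± 2.00 (SD, n = 3), 141 bp upstream of its start. Cpr, the NADPH-P450 reductase, was at percentiles 9.32 and 27.1 in replicates 1 and 2, and Fdx1, a ferredoxin, at 7.46 and 16.2 in the same replicates. Of 10 genes of glutathione supply and other glutathione enzymes 3 had one. They were Mgstl, a microsomal glutathione S-transferase outside the naming rule (85.7 ± 5.28, SD, n = 3), and both subunits of the rate-limiting glutathione synthesis enzyme, Gclc in an intron (18.9 and 55.4 in replicates 1 and 2) and Gclm at 38.4, 9.56 and 21.8 in the 3 replicates. The Gclm region lay nearer the start of CG17625. Of 4 genes of UDP-sugar supply, sgl (UDP-glucose dehydrogenase; 72.1, 85.1 and 44.6) and Ugalt (UDP-galactose transporter; at or above 99.97 in every list) had one.

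Among 9 genes listed here as possible regulators of the xenobiotic response, 7 had a core region: cnc, the fly homologue of Nrf2 (percentile 55.6 ± 10.7, SD, n = 3), its inhibitor Keap1 (88.9 ± 7.74), its partner maf-S, Hr96 (87.2 ± 3.12), the ecdysone receptor gene EcR (70.0 ± 3.67), crc and Hnf4. The regions of maf-S, crc and Hnf4 were in 2 lists. In replicates 1 and 2 the percentiles were 7.52 and 39.6 for maf-S and 22.8 and 43.4 for crc. Hnf4 stood at 69.0 and 33.5 in replicates 2 and 3. The list was drawn up for this description, and a role of each gene in the xenobiotic response was not tested. The genes cnc, EcR, Gclc and MRP each had 2 core regions, and the value of the stronger is given. The regions of Keap1, maf-S, Hr96 and crc lay nearer the start of a neighbour, namely kuk, CG11110, EMC6 and Mondo. Spineless (ss) and tgo itself had none. Of 5 exporter genes MRP (94.4 ± 2.72, SD, n = 3) and Mdr49 (53.6 and 17.9 in replicates 2 and 3) had one. Across the lists 17 of 39 matched genes had a core region, against 23.1% of all genes, but several of them are far longer than the enzyme genes and no test was made.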

How the data were processed

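Anti-GFP ChIP-seq peak lists of 3 biological replicates of tgo-eGFP embryos were used on dm6, with fragments of 200 to 800 bp per the labels. The aligner, peak caller, read depth and rankings paired for IDR were not given in the sources used here. Each peak therefore has an unknown precision. The deposited lists give per peak a score, which is the authors' scaled IDR, a signal value in unstated units, and a summit offset. The score runs from 830 to 1000 in the thresholded lists, and most peaks of the ranked lists score lower. The deposited ranked lists also hold the global IDR as −log10. Signal was used only as a percentile within a list. The submitters' control was not used here.

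Peaks outside the 7 named chromosome arms were dropped. Thresholded summits were joined by single linkage at 150 bp. Gene models were from Ensembl release 115 and sequence from the matching NCBI assembly of BDGP release 6, and a related gene was also matched by synonym where its symbol was absent. Tests were exact two-sided sign-flip permutations over the 3 replicates, and intervals are exact binomial, for counting error only. Functions were tested on simulated data. The members, gene lists and tests were chosen with earlier results of these data known. Genes were named if they had a core region, a thresholded summit in 1 list or 1 of the 6 strongest candidates shared by all 3 ranked lists, or if they stood on a list of 25 well-known members. Clans and clusters were described without a test. Alternatives concerned support for a region, joining, territory and motif window. Python 3.11.15, pandas 2.3.3, NumPy 2.4.6, SciPy 1.17.1 and Matplotlib 3.10.9 were used.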

Additional observations from a re-analysis of the deposited data

How the results depend on the processing

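The member share stayed below that of other genes under every alternative run, and the main count was 9 members with a core region, at -17.3 percentage points from other genes. The count was 5 with all 3 lists required and 4 with peaks above the median signal. It was 4 in gene bodies alone and 44 with 10 kb on either side. Over all protein-coding genes the share under these 4 settings was 17.5%, 14.4%, 9.63% and 54.9%. Without each replicate in turn the count was 5 to 7, lowest without replicate 2, and the difference was -16.9 to -14.4 points. Over all genes the share was 18.9%, 17.9% and 21.4% without replicates 1, 2 and 3. Without replicate 2 the regions of GstE12, GstT4, GstZ2 and Cyp317a1 were lost. The difference was -23.8 points with the conservative list (8 members), -11.9 with peaks above the median, -12.2 within 1 kb of start sites, -7.06 in gene bodies, -26.0 with 10 kb and -9.70 when a region counted only for the gene with the nearest start. The mean share of members with a thresholded summit, 5.96% at first, was 4.64% within 1 kb of starts, 1.99% in bodies, 30.9% with 10 kb and 5.08% by nearest start. The difference in passing candidates was -12.4 points within 1 kb of starts. At 200 bp 1 of 9 summit windows (11.1%) held a Tango word. A wider window holds more matches at any region, and no share over all core regions is given at 200 bp, so this is no result about the members. Regions built from all ranked peaks past the threshold, an alternative chosen after seeing the data, gave the same 9 members, and counting each candidate once, added likewise, gave -4.42 points. The cause of these shifts was not tested. With 9 core regions and 3 replicates, differences between families, clans or arrays were not tested.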
